A study of Homo sapiens with 15 samples.

Results

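The comparison described here set DLD1 cells 1 day after re-expression of USP7 against the parental cells they descend from. DLD1 is a human colorectal cancer cell line. The 3 parental libraries (WT) came from untreated DLD1 cells. The 3 day 1 libraries came from a DLD1 USP7 knockout line that had been transfected with a doxycycline-inducible GFP-USP7 plasmid and a Tet-On plasmid, selected in G418, and given 1 µg/ml doxycycline for 1 day. These 6 of the 15 libraries of the series were chosen by their labels. The 3 KO libraries came from the same inducible knockout line, with its plasmids, without doxycycline, and gave the starting point of the rescued cells, and the 6 libraries from 3 or 9 days of doxycycline served to estimate the spread between replicates. The parental libraries carried neither plasmid, G418 selection nor doxycycline, so effects of USP7, of doxycycline and of the making of the line cannot be told apart between day 1 and WT. Between day 1 and KO, effects of USP7 and of doxycycline cannot be told apart either. The labels call the samples of a group a biological triplicate and do not say how the cultures were kept apart, so p-values measure the spread between these samples.

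USP7 is a deubiquitinase, an enzyme that removes ubiquitin from other proteins and so often spares them from the proteasome. Among the proteins it is known to bind are subunits of Polycomb repressive complex 1 (PRC1), which places ubiquitin on histone H2A, and DNMT1, UHRF1 and the MDM2 ligase. The question the samples address is which parts of the transcriptome return to the parental level when the enzyme is put back, and the first day is the earliest time sampled.

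Poly(A)-selected RNA was sequenced, and the values are the authors' normalised counts per gene. The 9 WT, KO and day 1 libraries summed to between 14868374 and 15347043 normalised counts, and 20857 to 21314 genes were above 0 in each. Of the day 1 libraries, replicate 1 stood apart. Its squared differences from replicates 2 and 3 were 17 and 12.1 times those of counting error, against 1.68 between replicates 2 and 3 and 1.46 to 2.62 between WT libraries. Where a printed number of list members higher than, lower than or matched to WT moved by over 1.5 times without this library, both values are given. Of 10 colon epithelial markers 9 were in the table and all 9 were tested, with a summed level of 101634 to 103716 in WT and 130905 to 151455 at day 1. Of 8 leukocyte markers 4 were in the table, with sums of 25.0 to 31.9 in WT and 45.3 to 71.1 at day 1. The 2 fibroblast markers of 8 in the table summed to 64.8 to 80.6 in WT and 88.6 to 130.2 at day 1, and the 2 endothelial markers of 6 to 21.9 to 32.0 and 38.3 to 49.8. In KO the epithelial markers summed to 153497 to 160011. The leukocyte, fibroblast and endothelial markers summed there to 53.8 to 67.7, 58.8 to 97.5 and 39.8 to 51.8. The part of other cell types in the differences below was not tested.

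The USP7 transcript was above the parental level after 1 day. WT libraries held 3421, 3373 and 3382 normalised counts of USP7, KO libraries 1403, 1369.6 and 1395, and day 1 libraries 8635, 7888 and 8193. The 3 groups did not overlap (WT and day 1 libraries did not overlap for 48.2% of all genes tested), and the 3 knockout libraries, which still held USP7 reads, were the lowest. Mean levels were 3392 ± 25.4 in WT, 1389 ± 17.6 in KO and 8239 ± 375 at day 1 (SD, n = 3 each). The day 1 level was 2.43-fold that of WT, a log2 difference of 1.28 ± 0.049 (SE, as for every log2 difference given with ± below; 95% confidence interval 1.18 to 1.38; limma adjusted p = 1.3e-14). The counts do not separate the transcript of the GFP-USP7 plasmid from that of the gene itself.

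Most of what separated the knockout line from parental cells was still there after 1 day. Of 15134 genes tested, 6158 (40.7%) differed between day 1 and WT at an adjusted p under 0.05, 3012 higher (19.9%) and 3146 lower (20.8%) at day 1. For 4195 genes (27.7%) there was no call and the 95% confidence interval of the difference lay within 0.3 log2 units of WT in either direction, and these are called matched below. The other 4781 genes (31.6%) were neither: the difference did not pass the test and its interval went past the margin. Genes with few reads have wide intervals, and genes with a moderate difference that was not called fall here too. The 2 were not separated. The median interval over all genes tested reached 0.18 log2 units to either side. Of the called genes, 999 differed by at least 1 log2 unit, 413 of them higher and 586 lower. The median difference over all genes tested was -0.003.

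KO differed from WT at an adjusted p under 0.05 in 7519 genes (49.7%), with 24.8% of all genes higher and 24.8% lower in KO. The difference was at least 0.5 log2 units as well in 3144 genes (20.8%), 1388 higher and 1756 lower in KO. At day 1, 22 of these genes (0.7%) matched WT, 2455 (78.1%) still differed from WT in the direction of KO, 8 (0.254%) differed from WT in the opposite direction, and 659 (21%) could not be placed. The median absolute difference from WT of these 3144 genes was 0.89 log2 units in KO and 0.69 at day 1. These counts set comparisons side by side that share the WT libraries, so they are a description. The class of single genes was less stable than the counts: when each of the 9 libraries was left out in turn, 5 of the 22 matched genes and 4 of the 8 overshooting genes kept their class every time. The number of matched genes was 14, 13 and 13 without WT replicate 1, 2 or 3, and the number of overshooting genes was 5 without WT replicate 3.

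The matched genes were of mixed function, and the named ones moved from KO by 0.43 to 0.79 log2 units within the day. SLC43A1, an amino acid transporter, had 246, 261 and 249.7 normalised counts in WT, 438, 433 and 487 in KO, and 243, 292 and 278 at day 1. Its day 1 libraries overlapped those of WT and lay below all 3 KO libraries, with a difference from WT of 0.10 ± 0.081 (SE). PFKFB3, which makes the allosteric activator of phosphofructokinase in glycolysis, had 693, 789 and 739 in WT, 1126, 1261 and 1178 in KO, and 639, 728 and 821 at day 1. CPT1A, the carnitine palmitoyltransferase that admits long-chain fatty acids to mitochondria, had 1585, 1643 and 1649 in WT, 2297, 2577 and 2468 in KO, and 1671, 1765 and 1752 at day 1. For both metabolic enzymes the KO libraries were the highest, and the log2 difference of day 1 from WT was -0.03 for PFKFB3 and 0.09 for CPT1A. Each day 1 library of CPT1A lay above each WT library, while those of PFKFB3 overlapped WT.

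RUNX2, a transcription factor of bone formation, came up from below. It had 1593, 1613 and 1579 normalised counts in WT, 1027, 1083 and 1153 in KO, and 1492, 1473 and 1481 at day 1. Each day 1 library lay under each WT library, by a difference of -0.11 ± 0.048 that did not pass the test (adjusted p = 0.084) and whose interval lay inside the margin. FMN1, a formin that nucleates actin filaments, MR1, which presents microbial metabolites to T cells, and ZNF117, a zinc finger gene, had also been lower in KO, by 0.64, 0.64 and 0.77 log2 units, and were -0.12, 0.11 and -0.13 from WT at day 1. TFF1, a trefoil peptide secreted with mucus, had 122, 109 and 123 in WT, 208, 187 and 229 in KO, and 94.7, 134 and 136 at day 1. Its class was lost in each of the 9 leave-one-out fits. ASIC1, an acid-sensing ion channel, RSAD1, LBHD1 and EPOP, which binds Polycomb repressive complex 2 (PRC2), were above WT in KO and 0.08 to 0.14 log2 units from it at day 1. CPT1A, LBHD1, PFKFB3, POLR1G and RUNX2 were the 5 genes whose class held throughout, of which POLR1G, a subunit of RNA polymerase I, was named after its values were seen. ZNF117, LBHD1 and RUNX2 overlap other genes, and no source used here says whether strand was used in counting, so reads of their neighbours may be counted with them.

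**Figure D1:**
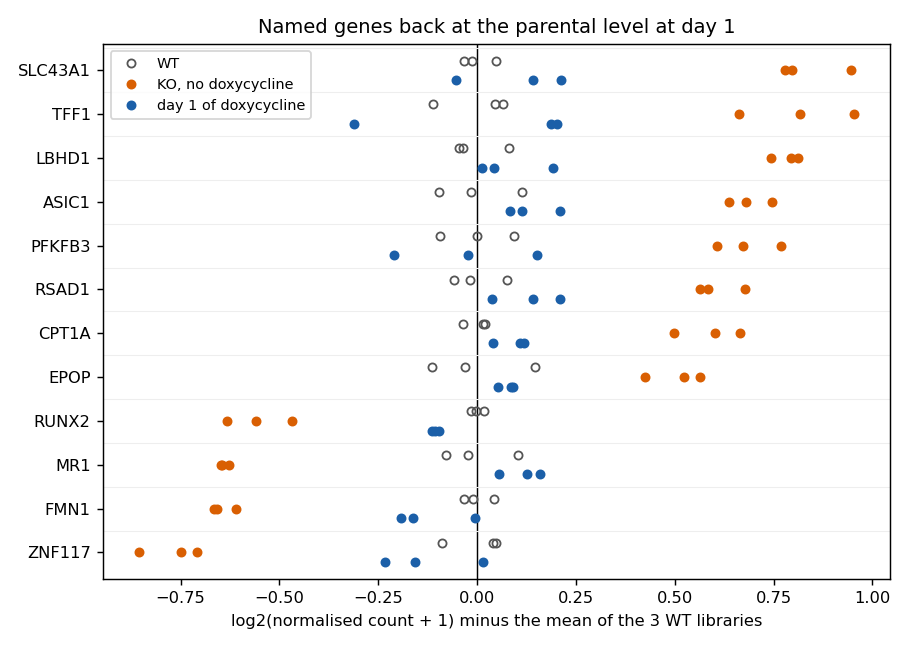
The 12 named genes that differed in KO and matched WT at day 1. The x axis gives log2(normalised count + 1) of each library minus the mean of the 3 WT libraries. Open circles are WT, orange points KO and blue points day 1, 3 libraries each. The day 1 libraries sit near the WT libraries, from SLC43A1 at the top, 0.84 log2 units above WT in KO, to ZNF117 at the bottom, 0.77 below. For CPT1A all day 1 libraries lie above the WT libraries, and for RUNX2 all lie below them, each on the side of KO.

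Overshoot was rare, and USP7 itself was one of its 8 genes. GSDMA, a gasdermin that forms pores in membranes when cleaved, had been lower in KO and was above WT at day 1. It had 210.3, 204 and 197 normalised counts in WT, 126, 124 and 125 in KO, and 382, 350.5 and 369 at day 1, a difference from WT of 0.85 ± 0.080 (limma adjusted p = 3.1e-08). No library of any of the 3 groups overlapped another group. PTPRM, a receptor tyrosine phosphatase at cell contacts, had 121, 104 and 115 in WT, 62.8, 67.7 and 89.6 in KO, and 144, 144 and 139 at day 1 (0.33 ± 0.12, limma adjusted p = 0.036). BICC1, an RNA-binding protein, was too low for the rule on named genes and is named after its values were seen; it had 45.8, 49.0 and 39.8 in WT and 67.5, 71.1 and 63.8 at day 1.

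The other 4 overshooting genes had been higher in KO and were below WT at day 1. H2AC6, a histone H2A gene, had 119.6, 103 and 106 normalised counts in WT, 161, 193 and 205 in KO, and 57.4, 69.1 and 86.7 at day 1 (-0.64 ± 0.14, limma adjusted p = 0.0012). PRKAR2B, a regulatory subunit of protein kinase A, had 113, 112 and 93.5 in WT, 160.4, 138 and 187 in KO, and 68.5, 62.1 and 82.7 at day 1 (-0.57 ± 0.14, limma adjusted p = 0.0025). For both genes the 3 groups did not overlap. TRIB2, a pseudokinase, and GLI2, a transcription factor of the Hedgehog pathway, were -0.36 ± 0.13 and -0.46 ± 0.18 from WT, with adjusted p of 0.035 and 0.048 in limma. PTPRM and TRIB2 kept their class in 4 of the 9 leave-one-out fits, GLI2 in 3 and PRKAR2B in 8, and USP7, GSDMA, H2AC6 and BICC1 in all 9. Histone genes have close copies, between which reads can be split.

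**Figure D2:**
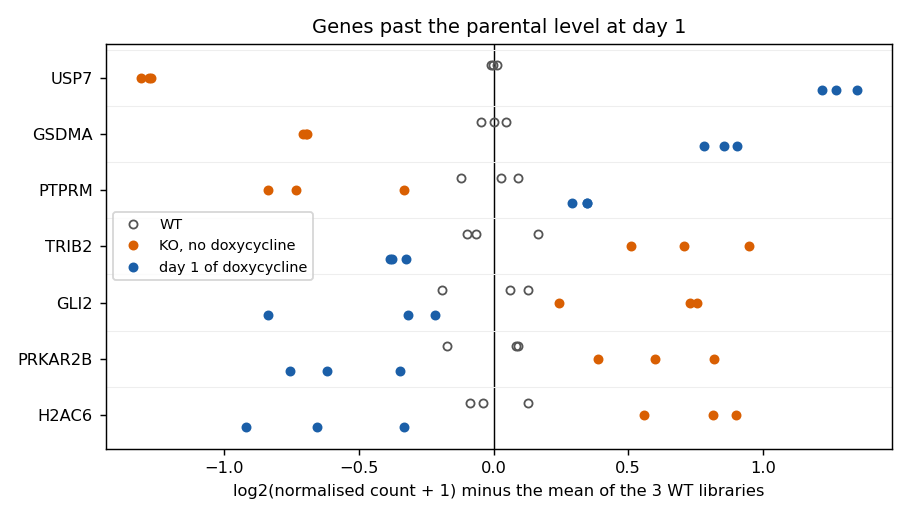
The 7 overshooting genes with a mean of at least 50 normalised counts, drawn as log2(normalised count + 1) of each library minus the mean of the 3 WT libraries. KO libraries (orange) and day 1 libraries (blue) lie on opposite sides of the WT libraries (open circles), with USP7 and GSDMA above WT at day 1 by 1.28 and 0.85 log2 units.

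A further 153 genes (1.01% of those tested), 85 higher and 68 lower, differed at day 1 from both WT and KO in the same direction while KO matched WT. Only the day 1 libraries of these groups had doxycycline, so effects of USP7 and of the drug cannot be told apart here. Without day 1 replicate 1 the number was 312, and 116 of the 153 remained. Over the 9 fits that left out 1 library each, 40 of the 153 kept their class every time. Without KO replicate 1, 2 or 3 it was 96, 87 and 96. RUFY3, which links membranes to kinesin and dynein transport, had the largest named difference. It had 601, 612 and 593 normalised counts in WT, 653, 627 and 593 in KO, and 1732, 1392 and 1583 at day 1 (1.37 ± 0.081, limma adjusted p = 7.1e-11). ADAM9, a membrane metalloprotease, was the most abundant of the 12 named genes of this class, with 6490.4, 6387 and 6135 in WT, 6273, 5719 and 6169.7 in KO, and 9185, 8127 and 8484 at day 1 (0.44 ± 0.048). WT and KO libraries overlapped for both genes and day 1 libraries lay above all of them.

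ADAM32, TLE4, a Groucho corepressor, SH3TC2 and SMPD1, the acid sphingomyelinase of lysosomes, were higher by 0.46 to 0.52 log2 units. GPR161, a receptor of the primary cilium that restrains Hedgehog signalling, fell most among the named genes. It had 221, 239 and 221 in WT, 192, 233 and 225 in KO, and 102, 127 and 138 at day 1 (-0.90 ± 0.11, limma adjusted p = 9e-07). TNFRSF1B, a receptor of tumour necrosis factor, had 215, 242 and 245 in WT and 122, 163 and 184 at day 1. CAV1, the coat protein of caveolae, had 483, 512 and 513 in WT and 367, 353 and 358 at day 1. Day 1 libraries were below all WT libraries for these 3 genes. CYB5D1, ANKRD36 and ASB13 were lower by 0.41 to 0.55 log2 units. CYB5D1 overlaps another gene and ANKRD36 has close copies. RUFY3, ADAM9, SMPD1 and ASB13 kept their class in all 9 leave-one-out fits. TLE4 and SH3TC2 kept it in 6, GPR161 in 5, ANKRD36 in 4, CAV1 and TNFRSF1B in 3, ADAM32 in 2 and CYB5D1 in 1.

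**Figure D3:**
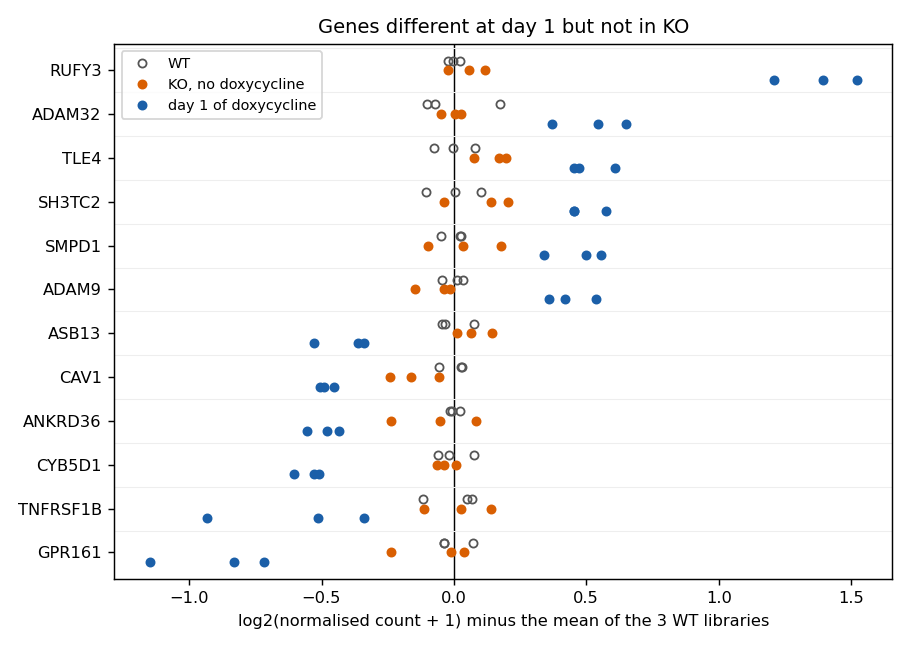
The 12 named genes that differed at day 1 from both WT and KO while KO matched WT, drawn as log2(normalised count + 1) of each library minus the mean of the 3 WT libraries. Day 1 libraries (blue) stand apart while KO (orange) and WT (open circles) lie together, from RUFY3, 1.37 log2 units above WT, to GPR161, 0.90 below.

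The named genes with the largest differences between day 1 and WT had differed in KO too. The 10 with the largest negative differences were listed at 0 in all 3 KO and all 3 day 1 libraries. MAGED1, a melanoma antigen family protein known to bind USP7, had 771, 828 and 789 normalised counts in WT. KCNJ5, a potassium channel, had 575, 603 and 619. Against a floor of 3 counts per library, the WT mean of MAGED1 was at least 265-fold higher and that of KCNJ5 at least 199.7-fold higher. The same held for WDR76, SPIN3, TEAD2, a partner of YAP at DNA, ZNF680, NME4, MYLK, the myosin light chain kinase, ECHDC2 and SH3BGRL, with bounds from 163-fold down to 73.3-fold.

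Of the 10 largest positive differences, several had come down from KO without reaching WT. SULF2, a sulfatase of heparan sulfate, had 49.8, 45.0 and 50.7 normalised counts in WT, 949.7, 945 and 1006 in KO, and 599, 647 and 665 at day 1 (3.69 ± 0.072 from WT and -0.60 from KO, limma adjusted p = 1.4e-05 for the latter). H19, an imprinted noncoding RNA, had 108, 122 and 121 in WT, 1842, 2076 and 2187 in KO, and 785, 1156 and 1188 at day 1. LGALS4, a galectin of the gut epithelium, had 21.9, 24.0 and 24.9 in WT, 377, 435 and 425 in KO, and 164, 264 and 285 at day 1. In each of these 3 genes the day 1 libraries lay between WT and KO. MUC6, a gastric mucin, behaved likewise at 233, 335 and 301 against 462, 497 and 481 in KO. For SATB1, a chromatin organiser, day 1 and KO libraries overlapped: 92.7, 91.9 and 95.5 in WT, 814, 853 and 883 in KO, and 807, 938 and 932 at day 1. RAMP1, HOPX, FER1L6, PSCA and KLK11 were 2.65 to 3.54 log2 units above WT, and none of the 5 passed the test against KO.

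Functions were compared through 41 lists of genes, by the number of tested members called higher or lower than WT, the number matched, and the median difference. All of these are to be read against the shares over all genes given above, and no list was tested as a set. Replication genes and the energy and protein machinery of mitochondria were among the lists with most matched members. Of 53 replication and E2F target genes, 32 matched WT at day 1, 6 were higher and 7 lower, with a median difference of -0.03 against 0.08 in KO. Without day 1 replicate 1, 15 were lower and 27 matched. Set against KO directly, 2 members were lower at day 1 (5.97% of all genes were) and none higher. By the rule of at least 0.5 log2 units 1 member had differed in KO, and it still differed from WT. MCM7, a helicase subunit, had 5118, 5099 and 5144 normalised counts in WT, 6561, 6681 and 6363 in KO, and 5638, 5854 and 5852 at day 1 (0.17 ± 0.038, limma adjusted p = 0.00088). TIMELESS, which guards the replication fork, LIG1, a DNA ligase, and TYMS, the thymidylate synthase, stayed lower than WT, by differences of -0.53, -0.47 and -0.38, close to their KO differences of -0.53, -0.46 and -0.29.

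Of 50 mitochondrial ribosomal proteins, 31 matched WT, 10 were higher and 1 lower, where 20 had been higher in KO. Leaving out day 1 replicate 1, 29 matched, 13 were higher and 3 lower. Set against KO directly, 3 of the 50 were lower at day 1 (5.97% of all genes were) and none higher. MRPS9, of the small subunit, had 1001, 1031 and 1013 normalised counts in WT, 2013, 1951 and 2014 in KO, and 1637, 1464 and 1511 at day 1, so that its libraries lay between the others. Of 58 nuclear genes of oxidative phosphorylation, 34 matched, 15 were higher and 2 lower, against 29 higher in KO. Set against KO directly, 2 of the 58 were lower at day 1 and 1 higher. Of both mitochondrial lists, 2 members each had differed in KO by at least 0.5 log2 units, and none of these matched WT. UQCRH, a subunit of complex III, was 0.40 above WT at day 1 and 0.54 in KO, whereas UQCRFS1, the Rieske protein, had 1281, 1263 and 1225 in WT, 1506, 1337 and 1399 in KO, and 1558, 1579 and 1638 at day 1 (0.34 ± 0.051, limma adjusted p = 1.4e-05). Cholesterol synthesis and uptake matched in 15 of 25 members, with 7 higher and 2 lower. There were 10 matched, 10 higher and 4 lower members without day 1 replicate 1. Of 34 known partners and substrates of USP7, 17 matched, 8 were higher and 5 lower. Without day 1 replicate 1, 9 were lower.

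Genes of MYC and ribosome production lay partway between KO and WT. MYC, the transcription factor that drives ribosome production, had 1875, 1978 and 1971 normalised counts in WT, 3934, 4053 and 4096 in KO, and 2274, 2862 and 2681 at day 1. Its day 1 libraries lay between the other groups, 0.42 ± 0.059 log2 units above WT (limma adjusted p = 8.2e-06) and -0.63 from KO (limma adjusted p = 8.6e-07). Of 50 MYC targets and ribosome biogenesis genes, 42 had been higher in KO than in WT (24.8% of all genes were) and 20 were higher at day 1. There were 22 matched members and 4 lower ones, and 31 of the 50 were lower at day 1 than in KO, against 5.97% of all genes. The median difference from WT was 0.32 in KO and 0.13 at day 1. FBL, the rRNA methyltransferase fibrillarin, had 2689, 2683 and 2654 in WT, 3883, 3777 and 3704 in KO, and 3246, 3290.3 and 3195 at day 1. NPM1, a nucleolar chaperone, was 0.47 above WT in KO and 0.32 at day 1. UTP20, of the small-subunit processome, went the other way, at 1358, 1316 and 1320.0 in WT, 1093, 1104 and 1046 in KO, and 1052, 835 and 884 at day 1.

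The letters CACGTG, the E-box that MYC and MAX are known to bind and which reads the same on both strands, were looked for from 250 bases before to 50 bases after the start of each gene in RefSeq promoters (GRCh38.p14). They were present in 17 of the 44 list members with a promoter (38.6%), in 10.0% of the promoters of genes tested here and in 7.4% of all promoters in the table. The 2 named members that hold them are shown 5′ to 3′ on the gene's strand, with the E-box in capitals, because FBL came down from KO and UTP20 did not rise in it. For UTP20 (chr12:101279955-101280104, plus strand) the 150 bases before the start are given, and for FBL (chr19:39846356-39846385, minus strand) the 30 bases around an E-box just inside the transcript.
UTP20: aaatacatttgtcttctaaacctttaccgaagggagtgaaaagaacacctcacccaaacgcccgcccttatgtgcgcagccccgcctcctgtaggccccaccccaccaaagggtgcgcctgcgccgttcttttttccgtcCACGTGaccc
FBL: tgcgctcttttcCACGTGcgaaagccccgg
The match is a description of the letters and says nothing of binding in these cells.

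Cytosolic ribosomal proteins had come partway too. Of 75 members, 33 were higher than WT at day 1, 5 lower and 31 matched, against 50 higher in KO, and the median difference was 0.10 at day 1 and 0.21 in KO. RPL26 had 3818, 3702 and 3665 normalised counts in WT, 5838, 5288 and 6011 in KO, and 5216, 5088 and 5459.9 at day 1 (0.49 ± 0.046, limma adjusted p = 2.1e-08). RPL38 showed no such step, with 0.61 in KO and 0.58 at day 1. Ribosomal protein genes have many processed copies in the genome, between which reads can be split.

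Interferon response genes were lower than WT in KO, and fewer of them were at day 1. Of 43 members, 25 were lower than WT in KO (24.8% of all genes were) and 17 at day 1. In KO 3 were higher and at day 1 6, and 5 matched at day 1. By the rule of at least 0.5 log2 units 17 members had differed in KO. Of these none matched WT at day 1, 11 still differed and 6 could not be placed. The median difference was -0.31 in KO and -0.15 at day 1, and 11 members were higher at day 1 than in KO against 4.94% of all genes. PARP14, a mono-ADP-ribosyltransferase, had 3118, 3194 and 3187 normalised counts in WT, 2177, 2188 and 2233 in KO, and 2679.5, 2394 and 2443 at day 1, between the other groups. OAS3, which makes the second messenger that activates RNase L, was -0.41 from WT in KO and -0.32 at day 1, and its difference from KO did not pass the test. HERC5, the ligase for ISG15, had 129, 113 and 117 in WT, 1.99, 2.99 and 1.99 in KO, and 3.02, 3.00 and 0 at day 1. SAMD9L, an antiviral factor, was the opposite, at 12, 12 and 12.9 in WT, 44.8, 40.8 and 37.8 in KO, and 68.5, 63.1 and 74.8 at day 1. It is among the 11 members higher at day 1 than in KO, and it moved away from WT.

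The letters GAAA, any 2 bases and GAAA again, the core of the element bound by interferon regulatory factors, were looked for on both strands (TTTC, 2 bases and TTTC on the opposite one). They were found in 18 of the 33 interferon list members with a RefSeq promoter (54.5%), in 2.7% of promoters of genes tested here and in 3.6% of all promoters in the table. Matches may overlap each other. The 150 bases before the start are shown for the first 2 named members, in alphabetical order, that hold a match, with every match in capitals. They are HERC5 (chr4:88456969-88457118, plus strand) and OAS3 (chr12:112938324-112938473, plus strand).
HERC5: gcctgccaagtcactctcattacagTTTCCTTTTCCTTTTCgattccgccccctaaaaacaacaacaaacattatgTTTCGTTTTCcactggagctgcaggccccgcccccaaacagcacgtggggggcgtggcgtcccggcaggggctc
OAS3: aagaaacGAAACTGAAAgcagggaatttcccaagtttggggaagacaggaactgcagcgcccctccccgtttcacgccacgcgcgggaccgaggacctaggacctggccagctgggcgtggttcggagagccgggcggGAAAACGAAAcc
HERC5 holds 3 matches and OAS3 holds 2 in the 300-base window, PARP14 holds 1, and SAMD9L holds none.

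**Figure D4:**
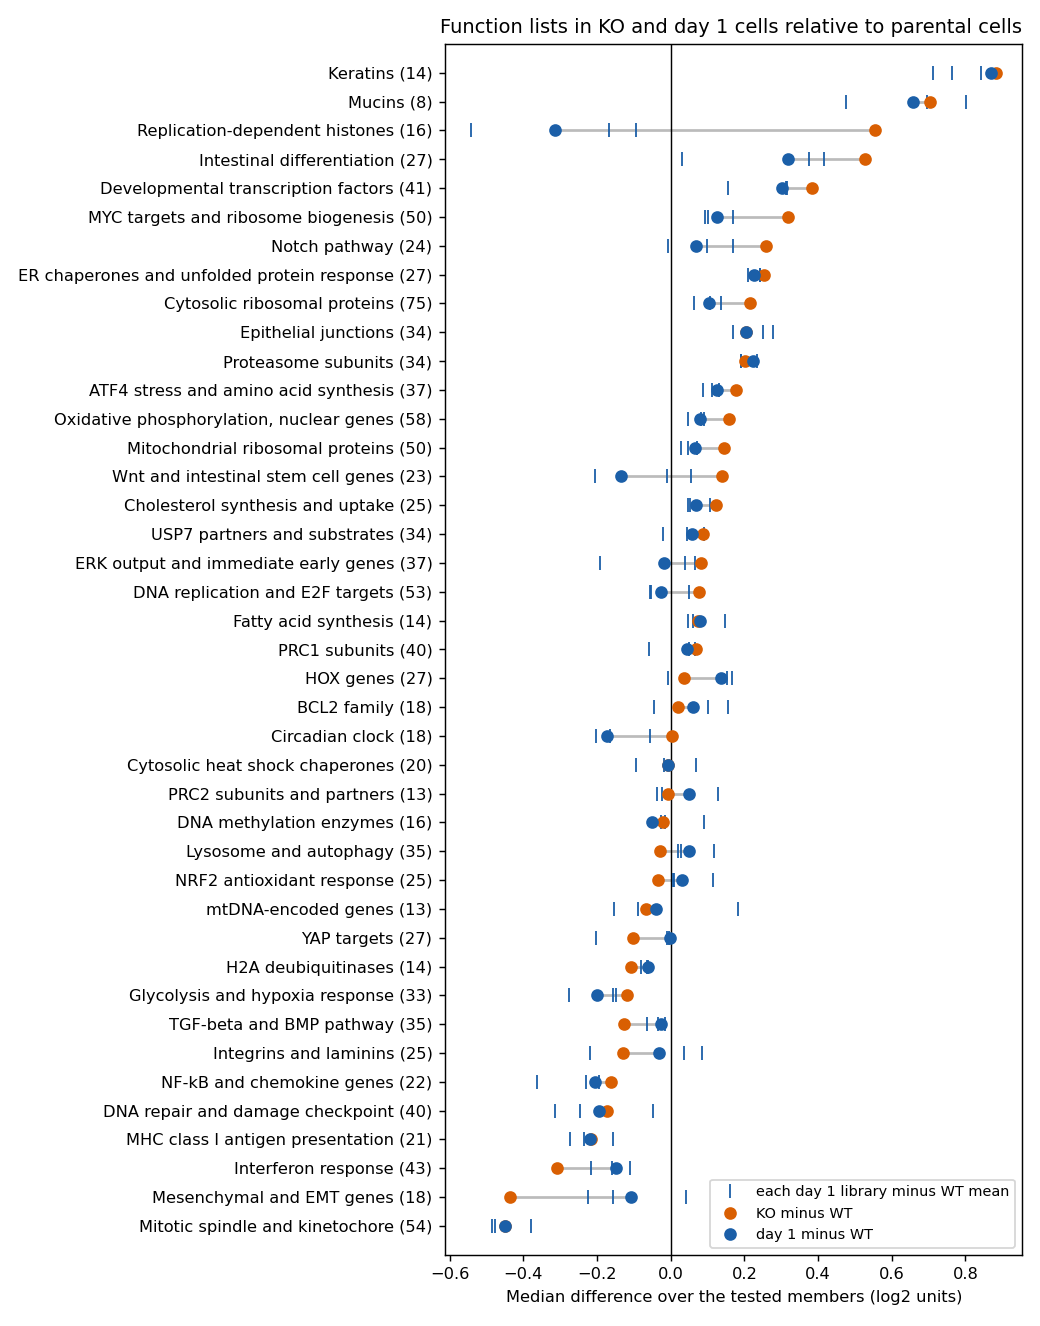
Median difference from WT over the tested members of each of 41 lists (number of members in brackets) in log2 units, for KO (orange) and day 1 (blue), with a tick for each of the 3 day 1 libraries. The 2 medians coincide at -0.45 for mitosis, come from 0.32 to 0.13 for MYC and ribosome biogenesis and from -0.31 to -0.15 for interferon response, and lie on opposite sides of 0 for replication-dependent histones.

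Mitosis genes were lower than WT and showed no call between KO and day 1. Of 54 mitotic spindle and kinetochore genes, 51 were lower than WT at day 1, none was higher and 3 matched. Leaving out day 1 replicate 1, 53 were lower and 1 matched. In KO 51 were lower (24.8% of all genes were), and the median difference was -0.45 in both groups. No member differed between day 1 and KO at an adjusted p under 0.05. In bulk RNA, fewer cells in mitosis and less of these transcripts per cell cannot be told apart. TOP2A, the topoisomerase that untangles chromosomes, had 16442, 15932 and 15329 normalised counts in WT, 8372, 8291 and 8491 in KO, and 9347, 7919 and 8189 at day 1 (-0.91 ± 0.050, limma adjusted p = 7.6e-12). ASPM, of the spindle pole, had 2829, 3122 and 2939.5 in WT, 1238, 1216 and 1192 in KO, and 1439.5, 1179 and 1211 at day 1. KO and day 1 libraries overlapped for both genes, far below WT. UBE2C, the ubiquitin-conjugating enzyme of the anaphase-promoting complex, was -0.70 from WT at day 1 and -0.69 in KO. CDC25C, the phosphatase that starts mitosis, was -1.95 and -2.18, and it overlaps another gene.

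DNA repair and checkpoint genes were lower in 21 of 40, with 2 higher and 15 matched. UNG, the uracil glycosylase, was lower than in KO as well, at 929, 932 and 979.8 normalised counts in WT, 699.6, 795 and 735 in KO, and 597, 595 and 561 at day 1 (-0.70 ± 0.059, limma adjusted p = 5.7e-09). FANCD2 and FANCI, the pair clamped onto DNA crosslinks, were -0.47 and -0.38 from WT, and XPC, which recognises damage in nucleotide excision repair, was -0.40.

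Proteasome and endoplasmic reticulum genes stayed above the parental level. Of 34 proteasome subunits, 25 were higher, 1 lower and 6 matched at day 1, with a median of 0.22 against 0.20 in KO. The counts were 26 higher, 2 lower and 3 matched without day 1 replicate 1. PSMD1, of the regulatory particle, had 3683, 3656 and 3659.7 normalised counts in WT, 5081, 4764 and 4689.7 in KO, and 5264, 4552 and 4770.1 at day 1. Of 27 chaperone and unfolded protein response genes, 20 were higher, 1 lower and 6 matched, with medians of 0.23 and 0.25. HSPA5, the chaperone BiP, had 9596, 9692 and 9751 in WT, 13759, 13557 and 13339.6 in KO, and 14330.5, 13132 and 13505 at day 1 (0.50 ± 0.038, limma adjusted p = 1.3e-09). In both genes day 1 and KO overlapped and lay above WT. XBP1, the transcription factor of that response, was 0.37 above WT in both groups.

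Genes of antigen presentation by MHC class I were mostly below WT. Of 21 members, 12 were lower, 3 higher and 4 matched, with a median of -0.22 in both groups. PSMB8, a subunit of the immunoproteasome, had 1044, 1010.0 and 1027 normalised counts in WT, 284, 315 and 282 in KO, and 263, 310.4 and 309 at day 1 (-1.80 ± 0.072, limma adjusted p = 2.8e-14); it overlaps another gene. NLRC5, the transactivator of MHC class I genes, had 191, 166 and 191 in WT, 99.7, 101 and 106 in KO, and 102, 112 and 105 at day 1. CALR, calreticulin, was among the 3 higher members, by 0.59.

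Keratin and junction genes were mostly above WT at day 1, as in KO. Of 14 keratins, 11 were higher than WT, 1 lower and none matched, with medians of 0.87 at day 1 and 0.88 in KO. Between day 1 and KO, 5 keratins were lower at day 1 (5.97% of all genes were) and none higher, with a median difference of -0.23. KRT18, a keratin of simple epithelia, had 27540.1, 27599 and 27597 normalised counts in WT, 45068, 47136 and 45337 in KO, and 36983, 40604 and 41255 at day 1, so that the groups did not overlap; it shares reads with a neighbour and with many copies. KRT20, a marker of differentiated colon epithelium, had 229, 194 and 170.1 in WT, was listed at 0 in the 3 KO libraries, and had 0, 6.01 and 0.997 at day 1. Of 34 junction genes, 21 were higher than WT, 4 lower and 6 matched. Between day 1 and KO, 8 of the 34 were higher at day 1 (4.94% of all genes were) and 2 lower. OCLN, occludin of tight junctions, had 393, 379.6 and 366 in WT, 747, 722 and 735 in KO, and 737, 718 and 712 at day 1. CDH1, E-cadherin, had 14653, 14573 and 14778 in WT, 19269, 19654 and 19213 in KO, and 20780.5, 20926 and 21229 at day 1, the highest of the 3 groups. CLDN2, a claudin that forms cation pores, was -0.82 from WT, past its KO difference of -0.58.

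Of 27 intestinal differentiation genes, 13 were higher, 7 lower and 3 matched. VIL1, the villin of microvilli, had 540.2, 519 and 558 normalised counts in WT, 1918, 2239 and 2134 in KO, and 2012, 2169 and 2213 at day 1 (1.98 ± 0.059, limma adjusted p = 2.3e-16). Among 8 mucins, 5 were higher and 1, MUC13, lower. MUC5B was listed at 0 in the 3 WT libraries, had 26.9, 47.8 and 45.8 in KO, and 5.04, 17 and 16.9 at day 1. Of 23 Wnt and intestinal stem cell genes, 7 were higher and 10 lower, and the median was -0.13 at day 1 against 0.14 in KO. Without day 1 replicate 1 the median was 0.03. LGR5, the receptor that marks intestinal stem cells, had 1258, 1279 and 1268 in WT, 212, 212 and 245 in KO, and 319, 298 and 320.0 at day 1, between the other groups and nearer to KO; it overlaps another gene. LGR4, its relative, was higher than WT, by 1.04 in KO and 0.75 at day 1.

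Several mesenchymal and adhesion genes were higher at day 1 than in KO. Of 18 mesenchymal genes, 7 were lower and 5 higher than WT, none matched, and the median was -0.44 in KO and -0.11 at day 1. Without day 1 replicate 3 that median was -0.29, without WT replicate 1 it was 0.01, and it was 0.25 among members that reached 50 counts in 3 libraries. TNC, the matrix protein tenascin C, had 638, 663 and 669 normalised counts in WT, 38.9, 31.9 and 28.9 in KO, and 79.6, 62.1 and 66.8 at day 1. TGFBI, a matrix protein induced by TGF-beta, had 3637, 3543 and 3561 in WT, 1605, 1688 and 1673 in KO, and 1952, 1997 and 1919 at day 1. ITGB6, an integrin subunit of epithelia, had 530.2, 475 and 499 in WT, 149, 136 and 145 in KO, and 229.7, 233 and 218 at day 1. In all 3 genes the day 1 libraries lay between WT and KO without overlap, and the difference from KO passed the test at 1.05, 0.24 and 0.66 log2 units. LAMA3, a laminin chain, was -2.02 in KO and -1.81 at day 1.

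Transcription factors of development, many of them known Polycomb targets, were higher than WT in 30 of 41 in KO and 17 at day 1, with 5 lower and 6 matched. The median was 0.38 in KO and 0.30 at day 1. Between day 1 and KO, 5 of the 41 were lower at day 1 and 1 higher, against 5.97% and 4.94% of all genes. PROX1 had 197, 187 and 219 normalised counts in WT, 378, 381 and 394 in KO, and 263, 310.4 and 316 at day 1 (-0.38 from KO, limma adjusted p = 0.0068). SOX9 was 0.39 above WT in KO and 0.33 at day 1, and MSX2 was lower, at -0.60 at day 1. Of 27 HOX genes, 10 were higher, 6 lower and 2 matched. HOXB9 had 4481, 4465 and 4645 in WT, 2689.6, 2691 and 2665 in KO, and 2773, 3113 and 3013 at day 1. In the Notch pathway 11 of 24 members had been higher in KO and 7 were at day 1 (12 without day 1 replicate 1). Set against KO directly, 5 of the 24 were lower at day 1 and none higher. JAG1, a ligand, had 3085, 3051 and 2887 in WT, 4254, 4091 and 4292 in KO, and 3378, 3494 and 3557 at day 1, and LFNG, the fringe glycosyltransferase of Notch, came from 1.10 to 0.49 above WT.

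Subunits of PRC1, the complex through which USP7 is known to act on chromatin, were called in both directions, as were genes at large. Of 40 members, 11 were higher than WT, USP7 among them, 9 were lower and 12 matched. Over all genes 19.9% were higher, 20.8% lower and 27.7% matched. Of the catalytic pair, RING1 was -0.15 ± 0.060 (limma adjusted p = 0.047) from WT and RNF2 0.18 ± 0.073 (limma adjusted p = 0.053). PCGF1 and PCGF3 matched, PCGF5 was -0.18 and BMI1 -0.35 from WT, and PCGF2 and PCGF6 could not be placed. BMI1 had 516, 529 and 408 normalised counts in WT, 347, 319 and 345 in KO, and 420.1, 355 and 359 at day 1. Among the chromobox readers of H3K27 methylation, CBX2 matched, CBX6 was 0.37 above, CBX7 was -0.81 and CBX8 could not be placed. CBX7 had 449.5, 433 and 429.7 in WT, 253, 267 and 295 in KO, and 216, 252 and 286 at day 1.

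Of the Polyhomeotic and SCM-like subunits, PHC2 was -0.47, SCMH1 -0.31 and SCML2 -0.41 from WT, PHC3 matched and PHC1 could not be placed. In the variant complexes, BCOR was -0.21 and BCORL1 0.43 from WT, RYBP 0.42 above, and SKP1 0.20 above, while KDM2B matched and YAF2 could not be placed. AUTS2 had the largest difference of the list, with 30.9, 35.0 and 27.9 normalised counts in WT, 221, 249 and 233 in KO, and 121, 146 and 166 at day 1 (2.17 ± 0.13, limma adjusted p = 4.3e-11), between the other groups. Its partners CSNK2A2 and CSNK2B matched, CSNK2A1 was 0.12 above, and FBRS and FBRSL1 could not be placed. L3MBTL2, E2F6, TFDP1 and WDR5 matched, MGA, MAX, HDAC1 and HDAC2 were 0.17 to 0.35 above, and DCAF7 was -0.33. WDR5 had been 0.24 above WT in KO and was 0.01 from it at day 1.

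The core of PRC2, which methylates histone H3 at lysine 27, matched WT: EZH2 by -0.00 ± 0.055, SUZ12 by -0.01 ± 0.059, EED by 0.05 ± 0.069 and EZH1 by 0.09 ± 0.073, and all 4 were within 0.06 log2 units of WT in KO. MTF2 and EPOP matched as well. Among the 13 members in all, JARID2, LCOR and AEBP2 were higher, by 0.73, 0.48 and 0.28, and PHF19, PHF1, RBBP4 and RBBP7 lower, by differences of -0.75, -0.49, -0.34 and -0.20. JARID2, which guides the complex to DNA, had 281, 299 and 288 normalised counts in WT, 525, 541 and 540.4 in KO, and 440.2, 538 and 467 at day 1.

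**Figure D5:**
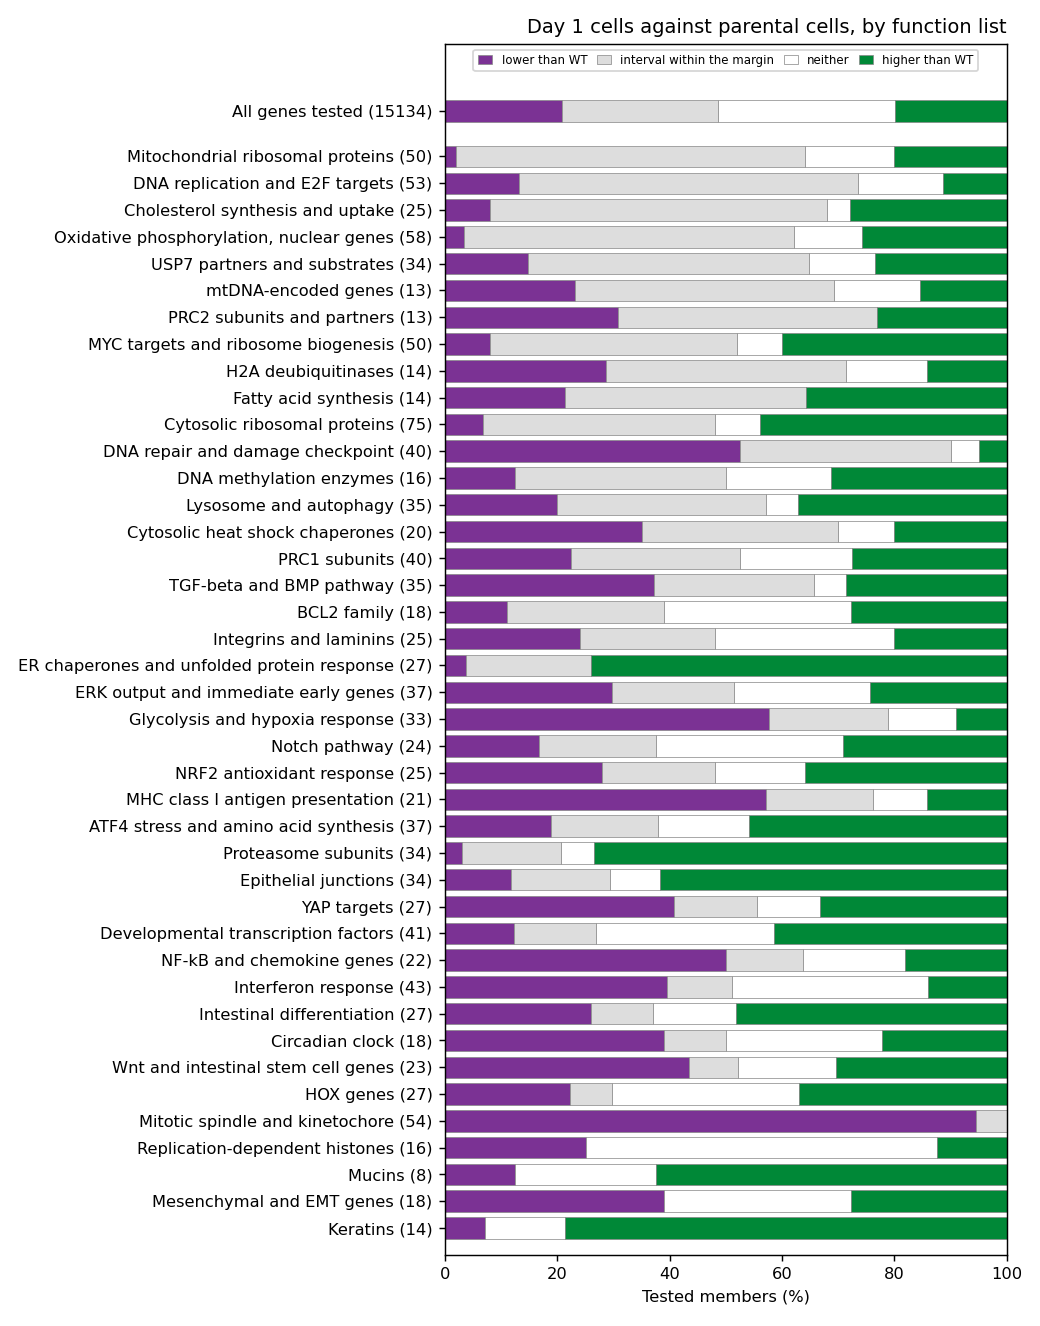
Share of the tested members of each of 41 lists, and of all genes (top), that were lower than WT at day 1 (purple), matched WT (grey), were neither (white) or were higher (green). Lists are ordered by the share that matched, from mitochondrial ribosomal proteins, 31 of 50, to keratins, none of 14. Low genes have wide intervals, so a list of low genes cannot hold many matched members.

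A few genes were further from the parental level at day 1 than they had been in KO, and they are put together here after their values were seen. TGFB2, a TGF-beta ligand, had 577, 542 and 556 normalised counts in WT, 67.8, 38.8 and 61.7 in KO, and 31.2, 18 and 25.9 at day 1 (-1.13 from KO, limma adjusted p = 0.00061). CXCL5, a neutrophil chemokine, had 4206, 4146 and 3472 in WT, 2579, 1821 and 2069 in KO, and 1622, 1257 and 1349.8 at day 1. The 3 groups did not overlap in either gene.

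Of 33 glycolysis and hypoxia genes, 19 were lower than WT at day 1, 3 higher and 7 matched. In KO 15 were lower and 8 higher, where 24.8% of all genes were called each way. The share of members higher in KO was thus near that of all genes. The median was -0.20 at day 1 and -0.12 in KO. Between day 1 and KO, 7 members were lower at day 1 (5.97% of all genes) and 2 higher (4.94%). The median was -0.16 and 5 members were higher than WT when day 1 replicate 1 was left out. LDHA, lactate dehydrogenase A, had 15724, 15789 and 15711 normalised counts in WT, 13182, 13329 and 13493 in KO, and 11716, 10319.6 and 11253 at day 1 (-0.27 from KO, limma adjusted p = 0.00039). PDK1, which keeps pyruvate out of mitochondria, was -0.49 from WT in KO and -0.74 at day 1. HK1, a hexokinase, stayed above WT, by 0.66. SLC12A2, an ion cotransporter, had 14395, 14234 and 12759 in WT, 12279, 12197 and 12473 in KO, and 9989.9, 9183 and 9612 at day 1. Replication-dependent histone genes, with medians of 0.55 in KO and -0.31 at day 1, had 2 of 16 members higher and 4 lower than WT, and 5 lower than KO. Without day 1 replicate 1 that median was -0.07, and it was -0.01 among members that reached 50 counts in 3 libraries. Most of their transcripts are known to lack a poly(A) tail, and these libraries were poly(A)-selected.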

How the data were processed

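The values are normalised counts per gene (unit: signal), which the authors deposited in 1 table of the series. Per the submitters' processing notes, HISAT2 2.1.0, HTSeq, DESeq2 and the build hg19 were used. No source used here gives the annotation or the strand setting. Each library's values were whole multiples of 1 step between 0.99 and 1.007 (tolerance 1e-06), so depth is close to the library totals, and intervals cover the spread between libraries. The table held 22706 genes, of which 1 with text in a cell was left out. The 15134 genes that reached 10 in 3 or more libraries were tested with limma 3.58.1 (R 4.3.3; trend and robust) on log2(value + 1), a scale that understates changes of low genes, over all 15 libraries with 1 mean per group and no covariate, and p-values were adjusted over all tested genes by Benjamini and Hochberg (threshold 0.05). A match needed no call and a 95% interval within 0.3 log2 units. A KO difference needed a call and at least 0.5 log2 units. The fit was tested on simulated data.

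Named genes were USP7, the 10 largest differences each way without overlap and with a mean of 50 or more, the 10 matched genes with the largest KO difference, the 6 largest each way among overshooting genes and among those different at day 1 but not in KO, the called members of a list with the lowest adjusted p (up to 4), up to 3 matched members per list, and the PRC1 and PRC2 members. The members and the 42 lists (1421 genes, 1320 in the table) were chosen with earlier results of these data known, and 1 list and some genes that the rule names are not reported here. Alternatives were another scaling, pseudocount, filter, margin and set of libraries, a replicate block, voom weights (added after the data were seen) and leaving out each library. Promoters are from RefSeq (GRCh38.p14). Figures were drawn with matplotlib. The design had planned count tests as well, for a table of raw counts.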

Additional observations from a re-analysis of the deposited data

How the results depend on the processing

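Genes higher than, lower than and matched to WT at day 1 numbered 3012, 3146 and 4195, and over the 9 fits that left out 1 library they ranged from 2539 to 3481, 2568 to 3344 and 3909 to 4200. Genes back at WT (22) ranged from 13 to 27, those still different (2455) from 2200 to 2465, overshooting genes (8) from 5 to 9, and genes different at day 1 but not in KO (153) from 87 to 312. With a margin of 0.5 log2 units 117 genes were back at WT. With no minimum size of the KO difference 1225 were back, 5070 still different and 29 overshooting. No other setting moved these counts by over 1.5 times. No named gene changed direction, and 11 lost their call in at least 1 setting. The medians of 12 of the 41 lists changed sign in at least 1 setting, all of them lists whose median was within 0.135 of 0. USP7 stayed between 1.24 and 1.31. RING1, CSNK2A1 and GLI2 lost their calls most often. Whether replicate numbers pair the samples was unclear. Deviations from the group means correlated at 0.25, 0.07 and 0.07 between WT and day 1 for replicates 1, 2 and 3. Between KO and day 1 they correlated at 0.19, 0.11 and 0.04. Day 1 replicate 1 correlated best with WT replicate 1, but day 1 replicates 2 and 3 with WT replicates 3 and 2. With the replicate number as a block, 3259 genes were higher and 3362 lower. The main fit shares 1 estimate of the spread per gene over all groups, although day 1 replicate 1 stood apart. With the 6 libraries of WT and day 1 alone, 2413 genes were higher, 2725 lower and 4025 matched. The authors' names for the day 3 and day 9 libraries carry a different prefix from those of the other libraries. The planned count tests were not run. Voom weights on the values divided by each library's step gave 2969 higher and 3193 lower genes.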

Other observations

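Other genes of survival and stress gave further examples of both behaviours. BCL2, which blocks apoptosis at mitochondria, had 32.9, 27.0 and 24.9 normalised counts in WT, 302, 301 and 313 in KO, and 86.6, 112 and 105 at day 1, a difference from KO of -1.59 (limma adjusted p = 1.7e-07). The 3 groups did not overlap. HSPH1, a cytosolic chaperone of the HSP110 family, had 4926, 4839 and 4804 in WT, 1016, 1061 and 1023 in KO, and 1203, 854 and 966 at day 1, so that day 1 and KO libraries overlapped. FKBP4, a cochaperone of HSP90, came partway, from 0.75 above WT in KO to 0.41 at day 1. Of the 25 genes of the NRF2 antioxidant response 9 were higher and 7 lower at day 1. NQO1, a quinone reductase, had 8070.1, 7704 and 7879.5 in WT, 4385, 4043 and 4082 in KO, and 4269, 4025 and 4146 at day 1.

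Among 37 genes of ERK output and immediate early response, 9 were higher and 11 lower. DUSP6, the phosphatase that inactivates ERK, had 2368, 2437 and 2281 normalised counts in WT, 1188, 1037 and 1192 in KO, and 1078, 1145 and 1072 at day 1. EGR1, an immediate early transcription factor, had 1009.6, 1093 and 1072 in WT, 1203, 1227 and 1296 in KO, and 1414, 1664 and 1557 at day 1, highest at day 1 without overlap. Of 18 circadian clock genes 4 were higher and 7 lower. RORA, a nuclear receptor of the clock, was 0.22 above WT in KO and 0.48 at day 1, and PER2, a clock repressor, was -0.67 and -0.76 from WT.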
